A study of Mus musculus with 6 samples.

Results

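The D-type cyclins Ccnd1, Ccnd2 and Ccnd3, their kinases Cdk4 and Cdk6, and the inhibitors Cdkn2a, Cdkn2b and Cdkn1a were followed through 5 ChIP-seq peak lists of mouse Ewing sarcoma cells. The rule took every peak within 50 kb of a stated mm9 span of each gene. Cdkn2a and Cdkn2b share a span, so the 8 genes form 7 loci. The loci held 130 of the 76477 peaks of all lists: 52 of 25970 H3K27ac peaks in the ES48 line, 56 of 29652 H3K27ac peaks in ES49, 22 of 19560 H3K27me3 peaks in ES49, and 0 of the 614 ES48 and 681 ES49 EWS-FLI1 peaks. The libraries came from ES48 and ES49, murine tumour lines induced by the fusion EWS-FLI1 on a Balb/c background and grown in IMDM without treatment. Both lines carry the fusion, and there is no line without it. EWS-FLI1 was precipitated with a FLAG antibody. H3K27ac marks active promoters and enhancers, and H3K27me3 is the mark of Polycomb repressive complexes. Each group is 1 library, H3K27me3 was mapped in ES49 alone, and the ES49 input was not analysed here. The lists hold no read counts, so depth is unknown and no difference between the lines has a replicate check. Expression was not measured in the files used here, so neither the cell type nor the activity of these genes could be checked.

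D-type cyclins are made in response to growth signals and bind Cdk4 or Cdk6. The active kinases phosphorylate the retinoblastoma protein, which releases E2F factors and lets the cell enter S phase. Cdkn2a encodes p16Ink4a, a direct inhibitor of Cdk4 and Cdk6, and, from a separate upstream promoter, p19Arf, which stabilises p53. Cdkn2b encodes p15Ink4b, a close relative of p16Ink4a. Cdkn1a encodes p21, a broader kinase inhibitor and a classic target of p53. FLI1 is an ETS factor that recognises the core GGAA, and the EWS-FLI1 fusion also binds repeats of it. Other parts of the pathway, such as Rb1, the E2F genes, Cdkn1b and the E cyclins, were not located because no mm9 annotation was used.

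The stretches before the starts of the kinases and inhibitors are shown because acetylation near these genes is described below. No peak was assigned to a start of the RefSeq table. RefSeq (GRCm38.p6) gave promoter entries for 6 of the 8 genes, 9 starts in all, without Ccnd1 and Ccnd2. Each line below gives the 250 bases before a start, 5′ to 3′ in the direction of the gene. They were matched by symbol and not by position, since the peaks are in mm9. For the kinases, both on the plus strand, capitals mark the E-box CACGTG, a palindrome and so the same on both strands.

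Cdk4: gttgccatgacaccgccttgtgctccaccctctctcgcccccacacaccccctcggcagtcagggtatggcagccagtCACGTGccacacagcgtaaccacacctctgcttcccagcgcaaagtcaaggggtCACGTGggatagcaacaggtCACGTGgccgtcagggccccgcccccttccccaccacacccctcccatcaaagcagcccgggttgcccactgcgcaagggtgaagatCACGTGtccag
Cdk6: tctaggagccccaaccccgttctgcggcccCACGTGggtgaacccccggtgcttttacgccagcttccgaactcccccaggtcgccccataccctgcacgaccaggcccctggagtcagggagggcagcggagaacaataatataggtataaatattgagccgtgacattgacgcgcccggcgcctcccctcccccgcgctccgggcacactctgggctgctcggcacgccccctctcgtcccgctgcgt

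Cdk4 had 4 such E-boxes and Cdk6 had 1. Of all 32851 promoter entries of the same length, 6.02% held at least 1, and 7 entries (0.0213%) held 4 or more. The cutoff of 4 is the count of Cdk4 itself, so this share is no test. The Cdk6 stretch was 66.0% G and C with 22 CG pairs, and that of Cdk4 was 64.4% with 13, against medians of 52.4% and 6.00 over all entries.

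For Cdkn2a and Cdkn2b, on the minus strand and printed as the gene reads, capitals mark GGAA or its complement TTCC. The upstream Cdkn2a start is that of p19Arf and the downstream start that of p16Ink4a.

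Cdkn2a upstream start: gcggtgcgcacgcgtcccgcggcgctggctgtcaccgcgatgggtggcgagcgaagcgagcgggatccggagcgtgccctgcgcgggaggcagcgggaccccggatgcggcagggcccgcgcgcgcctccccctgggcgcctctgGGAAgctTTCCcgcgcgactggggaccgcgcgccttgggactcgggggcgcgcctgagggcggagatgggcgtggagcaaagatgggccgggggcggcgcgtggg
Cdkn2a downstream start: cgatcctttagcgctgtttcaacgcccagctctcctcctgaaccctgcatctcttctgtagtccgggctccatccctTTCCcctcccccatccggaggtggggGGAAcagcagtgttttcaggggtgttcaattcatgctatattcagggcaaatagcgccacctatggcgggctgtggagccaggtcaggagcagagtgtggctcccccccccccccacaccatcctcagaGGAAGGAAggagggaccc
Cdkn2b: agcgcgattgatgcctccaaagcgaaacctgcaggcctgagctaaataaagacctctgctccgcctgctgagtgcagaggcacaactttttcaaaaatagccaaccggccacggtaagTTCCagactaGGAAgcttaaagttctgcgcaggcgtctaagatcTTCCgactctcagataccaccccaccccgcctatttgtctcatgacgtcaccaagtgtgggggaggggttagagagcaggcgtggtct

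GGAA on either strand occurred 2, 4 and 3 times in these stretches. It is common, with at least 1 match in 93.4% of all entries. Matches may overlap the tandem GGAAGGAA (or TTCCTTCC), which occurred once, before the downstream Cdkn2a start, and in 3.12% of all entries. The upstream Cdkn2a stretch was the richest of the 9 in CG pairs, with 40 and 78.4% G and C.

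For Cdkn1a, on the plus strand, capitals mark matches to the p53 half-site, searched on both strands. This is the upstream of its 2 starts in the table.

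Cdkn1a upstream start: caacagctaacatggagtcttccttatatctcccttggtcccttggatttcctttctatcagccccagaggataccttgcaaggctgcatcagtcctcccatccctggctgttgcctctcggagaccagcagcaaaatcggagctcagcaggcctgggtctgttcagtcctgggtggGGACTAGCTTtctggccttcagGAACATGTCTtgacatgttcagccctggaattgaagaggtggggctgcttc

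The stretch held 2 half-site matches, and 7.13% of all entries held at least 1. The stretch before the downstream Cdkn1a start held 0. The upstream stretch had 2 CG pairs and the downstream one 19.

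All 7 loci held H3K27ac in both lines. At least 1 peak lay within 50 kb in 7 of 7 loci in ES48 and 7 of 7 in ES49. Fixed 100 kb windows laid over the whole genome held an H3K27ac peak in 34.3% of cases in ES48 and 32.5% in ES49. The locus windows are longer, at 104 to 291 kb, and were chosen around genes, so the genome windows are a loose yardstick. H3K27me3 lay near 4 of 7 loci in ES49 (Ccnd1, Ccnd2, Cdk4 and Cdk6), against 13.5% of the genome windows. The same 4 loci held both marks in ES49, against 5.65% of the windows. Both counts depend on the window. Within 10 kb H3K27me3 lay at 3 loci (Ccnd2, Cdk4 and Cdk6) and both marks at 2 (Ccnd2 and Cdk4). In the spans alone H3K27me3 lay at 1 locus, Cdk6, and both marks at 0.

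**Figure D1:**
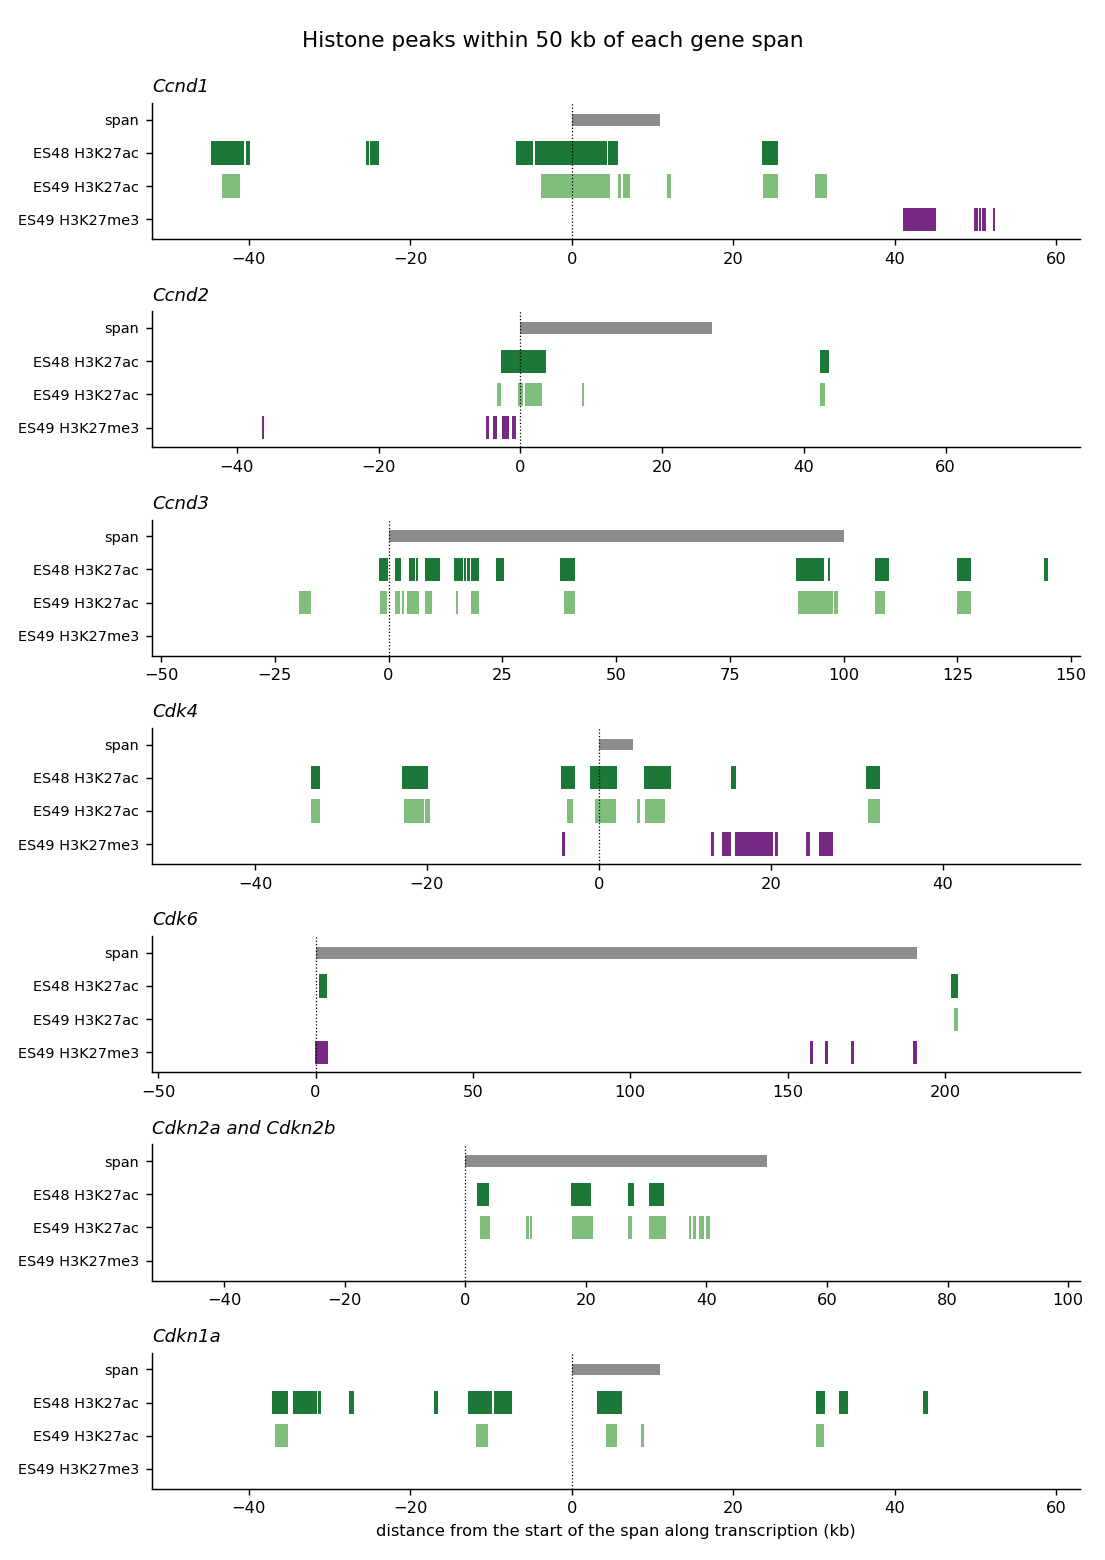
Peaks of 3 histone lists within 50 kb of each span, drawn from the start of the span along transcription (kb, a separate scale per locus). Grey bars are the spans and coloured bars are peaks. Acetylation lies in every panel for both lines, and H3K27me3 lies in those of Ccnd1, Ccnd2, Cdk4 and Cdk6.

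The length under H3K27ac peaks differed widely among the loci. Ccnd3 had the most, with 31.2 kb in ES48 and 27.7 kb in ES49, followed by Ccnd1 in both lines, with 20.3 and 15.6 kb. Cdk6 had the least, with 4.37 and 1.15 kb in the longest window of all. Over the 7 loci, peaks covered 104 kb in ES48 and 78.1 kb in ES49, 9.48% and 7.14% of the windows, against 1.83% and 1.36% of the genome. The ratio of ES48 to ES49 was 1.33 over the loci and 1.35 over the genome. A ratio near 1.35 therefore describes the 2 lists as wholes and is no feature of a locus.

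Cdk6, Cdkn1a and the Cdkn2a and Cdkn2b locus stood farthest from it. Cdk6 had a ratio of 3.79 and Cdkn1a of 2.97. Cdkn2a and Cdkn2b had a ratio of 0.726, so within 50 kb and with all peaks theirs was the only locus of the 7 with more length under peaks in ES49. Ccnd1, Ccnd2, Ccnd3 and Cdk4 lay between 1.13 and 1.63. Other settings moved some of these: Ccnd1 had 0.950 and Cdkn1a 1.71 in the span alone, and with the upper 50% of scores Ccnd3 had 0.986 and Ccnd2 2.62. None of these ratios could be tested with 1 library per line.

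**Figure D2:**
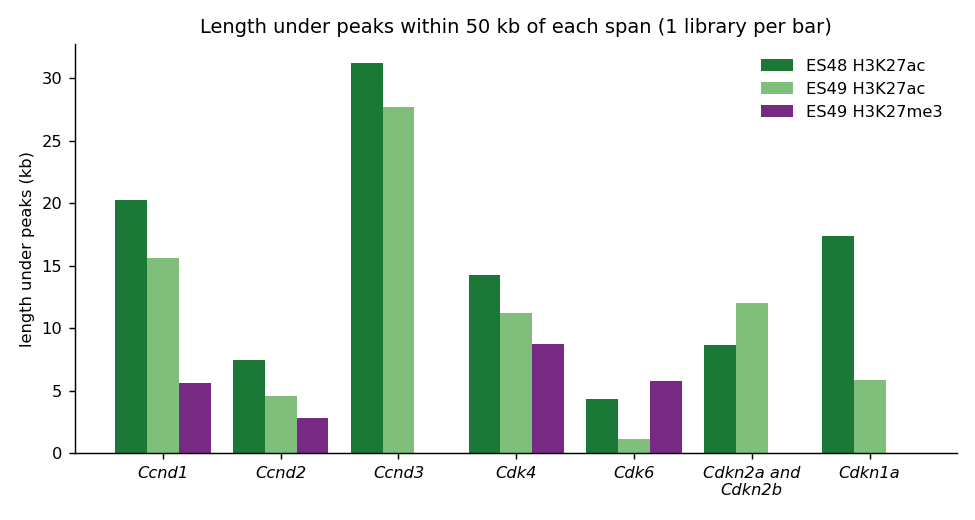
Length under peaks (kb) within 50 kb of each span, 1 bar per library and locus, with no error bars because each group is 1 library. ES48 H3K27ac exceeds ES49 H3K27ac at 6 loci, while at Cdkn2a and Cdkn2b the bars are 8.70 kb in ES48 and 12.0 kb in ES49.

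By count, the sharing of peaks between the lines was close to that of the whole lists. In ES48 34 of the 52 H3K27ac peaks near the loci (65.4%, 95% Clopper-Pearson interval 50.9 to 78.0) overlapped one in ES49, against 66.6% of the list. In ES49 38 of 56 (67.9%, 54.0 to 79.7) overlapped one in ES48, against 68.6%. The intervals cover counting error only, and neighbouring peaks are not independent. By length, 51.6% of the sequence acetylated in either line near the loci was acetylated in both, against 50.9% over the genome. Cdk4 had the highest such share at 69.4%, and Cdk6 (26.4%) and Cdkn1a (30.8%) had the lowest.

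The scores, which are the authors' and are used only within a list, level off at 3100 for many peaks. That score lay above 80.4% of the ES48 list and 94.0% of the ES49 list, so a score of one line is not set against that of the other, and ranks within each list are given for the H3K27ac pairs. In ES48 10 of the 52 peaks scored at least 3100 (19.2%), against 19.6% of the list, and in ES49 4 of 56 did (7.14%), against 6.01%. In ES49 these were 1 peak each at Ccnd1, Ccnd3, Cdk4 and the Cdkn2a and Cdkn2b locus. Each of the 4 overlapped an ES48 peak that also scored 3100.

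H3K27ac at the starts of the spans was counted within 2 kb of the end where the gene begins. The spans are rounded to about 1 kb or more, and the direction of Ccnd1 and Ccnd2, both on the minus strand, is textbook knowledge. In ES48 5 of 7 starts were acetylated (Ccnd1, Ccnd2, Ccnd3, Cdk4 and Cdk6), against 4.75% of fixed 4 kb windows of the genome. In ES49 4 of 7 were, against 4.52%, and the start missing there was that of Cdk6. The shared Cdkn2a and Cdkn2b span was counted only at its upper end, so gene starts inside it were not examined. The ES48 peak nearest that end, chr4:88956127-88958000, lay at the 2 kb limit and was not counted. Leaving this locus out in ES48 therefore depends on the rounding of the span. The nearest ES49 peak lay slightly farther from that end. Within 1 kb the count was 4 of 7 in each line, the same 4 loci, so the difference at 2 kb rests on the ES48 Cdk6 peak 1.07 kb from a rounded start. Within 5 kb the counts were 7 and 6, since the nearest peaks of the Cdkn1a locus and of the Cdkn2a and Cdkn2b locus lay up to 4.21 kb from the rounded start. The Cdk6 start stayed without H3K27ac in ES49. H3K27me3 lay within 2 kb of 2 of 7 starts, Ccnd2 and Cdk6, against 2.03% of the 4 kb windows. For both marks these windows were not chosen around gene starts, so they too are a loose yardstick.

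Among the cyclins, Ccnd1, the cyclin most often amplified in human tumours, had the widest single H3K27ac peak of any of the 7 loci in each line. A single H3K27ac peak covered its start in each line: chr7:152121578-152130518 in ES48, 8941 bp wide, and chr7:152121244-152129836 in ES49, 8593 bp wide. Both scored 3100, and 8259 bp of the ES48 peak were acetylated in ES49. The 2 lines therefore had nearly the same stretch, on both sides of the start. ES48 had a further peak without an ES49 counterpart next to it, at chr7:152130831-152132870 (2040 bp, score 586.0), and a pair 23.9 and 25.1 kb before the start. Peaks without a counterpart occurred in both lines, 4 of 8 in ES48 and 5 of 9 in ES49. Over the whole lists 66.6% of ES48 peaks and 68.6% of ES49 peaks had a counterpart. Of the 5 unmatched ES49 peaks at Ccnd1, 3 lay inside the gene, 5.74 to 6.78 kb from the start. They were 396 to 420 bp wide with scores of 50.22 to 56.23.

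A distal acetylated stretch before the start of Ccnd1 was wider in ES48. H3K27ac peaks were also wider in ES48 over the whole lists, with a median of 1475 bp against 838 bp in ES49. In ES48 chr7:152166605-152170737 was 4133 bp wide and scored 3100, above 80.4% of the list. Its ES49 counterparts were 1057 and 1062 bp wide with scores of 230.2 and 276.4. They scored above 55.9% and 59.0% of the ES49 list. On the other side of the gene, chr7:152100399-152102392 in ES48 (score 1908, above 71.3% of its list) contained the ES49 peak chr7:152100539-152102315 (score 868.0, above 76.8%). In RefSeq order the neighbours of Ccnd1 are LTO1 and Tpcn2. Whether either lies in the window was not tested, and the peaks were not assigned to a gene.

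H3K27me3 at Ccnd1 lay at the far end of the window and away from the acetylation. Of the 5 peaks, the highest was chr7:152080941-152085019, 4079 bp wide with a score of 1553, above 96.7% of its list. It began 30.0 kb past the end of the span. The other 4 were 278 to 536 bp wide and scored 50.12 to 109.9. None of the 5 overlapped H3K27ac of either line.

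Ccnd2, the cyclin best known in lymphoid, ovarian and neural tissue, had both marks side by side at its start in ES49. ES48 had 1 broad H3K27ac peak over the start, chr6:127098447-127104714, 6268 bp wide with a score of 3100, above 80.4% of its list. In ES49 smaller peaks lay in the same stretch. H3K27ac peaks were narrower in ES49 over the whole list, with a median of 838 bp against 1475 bp in ES48. Inside the gene lay chr6:127098958-127101346, 2389 bp wide with a score of 1364, above 83.6% of the list. The rounded start itself was covered only by a small peak, chr6:127101685-127102345, with 661 bp and a score of 89.98. Before the start a small H3K27ac peak lay among the H3K27me3 peaks. H3K27me3 peaks lay at chr6:127102575-127103236 (score 100.7) and chr6:127103627-127104607 (score 201.2), an H3K27ac peak at chr6:127104706-127105253 (score 68.28), and H3K27me3 again at chr6:127105273-127105806 (score 103.5) and chr6:127106457-127106856 (score 74.65).

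No base at Ccnd2 was under both marks in ES49. The broad ES48 H3K27ac peak covered 1643 bp of the ES49 H3K27me3, which is the whole of the 2 nearest H3K27me3 peaks. Those H3K27me3 scores are modest, and the higher of the pair lay above 80.3% of its list. The remaining acetylation at the locus was small: 1 further peak in ES48 and 2 in ES49, of which 1 in each line overlapped, at chr6:127058517-127059726 in ES48.

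Ccnd3, the cyclin prominent in blood and muscle cells, had the most H3K27ac peaks, 17 in each line. In each line 13 overlapped the other, against 66.6% of the ES48 list and 68.6% of the ES49 list. Ccnd3 had no H3K27me3 within 50 kb, and the nearest such peak lay 1014 kb away. The widest peaks lay toward the far end of the span, 89.5 kb from its start in ES48 and 89.9 kb in ES49. They were chr17:47729525-47735033 (5509 bp) and chr17:47729900-47735917 (6018 bp), and both scored 3100. RefSeq lists a second, downstream start for Ccnd3. Whether the peak covers it was not tested, for want of mm9 positions.

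Next to the rounded start of the Ccnd3 span, H3K27ac lay at chr17:47637902-47639959 in ES48 (score 1767, above 69.9% of its list). In ES49 it lay at chr17:47638109-47639672 (score 757.2, above 74.8%), and both peaks ended just before the span. A second pair lay inside the gene, 1.32 kb from the start in ES48 (chr17:47641316-47642750, score 445.2, above 46.7% of its list) and 1.34 kb in ES49 (chr17:47641344-47642525, score 319.1, above 61.2%). Between the 2 places lay a run of peaks inside the gene. In ES48 the highest of this run were chr17:47647956-47651305 (score 2968, above 79.7% of the list) and chr17:47654313-47656257 (score 2223, above 74.3%). The former had an ES49 counterpart of 1469 bp with a score of 1005, above 79.0% of its list. The latter had one of 507 bp with a score of 89.68, above 35.3% of its list. Beyond the span, at chr17:47746803-47749919 in ES48 (score 3100, above 80.4% of its list) and chr17:47747201-47749379 in ES49 (score 1427, above 84.2%), a further pair lay on the side of the neighbour Bysl.

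Of the kinases, Cdk4 had an acetylated start and Cdk6 differed between the lists. At Cdk4, H3K27ac covered the start at chr10:126499415-126502622 in ES48, 3208 bp, and at chr10:126500099-126502491 in ES49, 2393 bp. Both scored 3100, and the ES49 peak lay wholly within the ES48 peak. This is the gene with 4 E-boxes in the stretch printed above, and any link to the acetylation was not tested. Around Cdk4 6 of 7 ES48 H3K27ac peaks and 8 of 9 ES49 peaks overlapped the other line. Over the whole lists 66.6% of ES48 peaks and 68.6% of ES49 peaks did, and the counts at Cdk4 are small. The widest ES49 peak lay 20.3 kb before the start, on the side of Marchf9, at chr10:126477793-126480194, 2402 bp wide with a score of 2395, above 91.1% of its list. It lay within the ES48 peak chr10:126477607-126480613, 3007 bp wide with a score of 3100, above 80.4% of its list. In RefSeq order the neighbours of Cdk4 are Marchf9 and Tspan31. Their distances were not measured, and peaks outside the short span can belong to other genes.

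The Cdk4 window held the most H3K27me3 of the loci, 7 peaks with 8.72 kb. The highest, chr10:126516271-126520826, was 4556 bp wide with a score of 2485, above 98.2% of the list, and began 11.8 kb past the end of the span. The other peaks of this group ran from chr10:126513491 to 126527654. A lone weak peak lay before the gene at chr10:126496227-126496572 (score 51.74). An ES48 H3K27ac peak (score 722.1) covered all 346 bp of it, and the ES49 H3K27ac peak there, chr10:126496830-126497441, began after it ended. A second ES48 H3K27ac peak, chr10:126515937-126516486 (score 81.43), shared 216 bp with the large H3K27me3 peak.

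The beginning of Cdk6 was acetylated in ES48 and under H3K27me3 in ES49. In ES49 the start lay in an H3K27me3 peak, chr5:3340852-3344896, 4045 bp wide with a score of 2659, above 98.4% of the list and the highest H3K27me3 score near any of the 7 loci. In ES48 H3K27ac lay at chr5:3342072-3344767, from 1.07 kb inside the rounded start, 2696 bp wide with a score of 1530, above 67.4% of the list. The whole ES48 H3K27ac peak lay inside the ES49 H3K27me3 peak. ES49 had no H3K27ac peak in the 191 kb span. ES48 H3K27me3 was not mapped, so whether the mark is also present at this start in ES48 is unknown.

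The rest of the Cdk6 locus was sparse. In ES49 4 further H3K27me3 peaks lay in the last part of the span, 311 to 554 bp wide with scores of 51.03 to 92.24. The acetylation common to the lines lay 11.4 to 11.5 kb past the end of the span, on the side of the neighbour Fam133b, at chr5:3543387-3545057 in ES48 (score 2663, above 77.6% of its list) and chr5:3543516-3544666 in ES49 (score 1177, above 81.5%). With it, the ratio of 3.79 in covered length rests on 2 ES48 peaks and 1 ES49 peak.

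**Figure D3:**
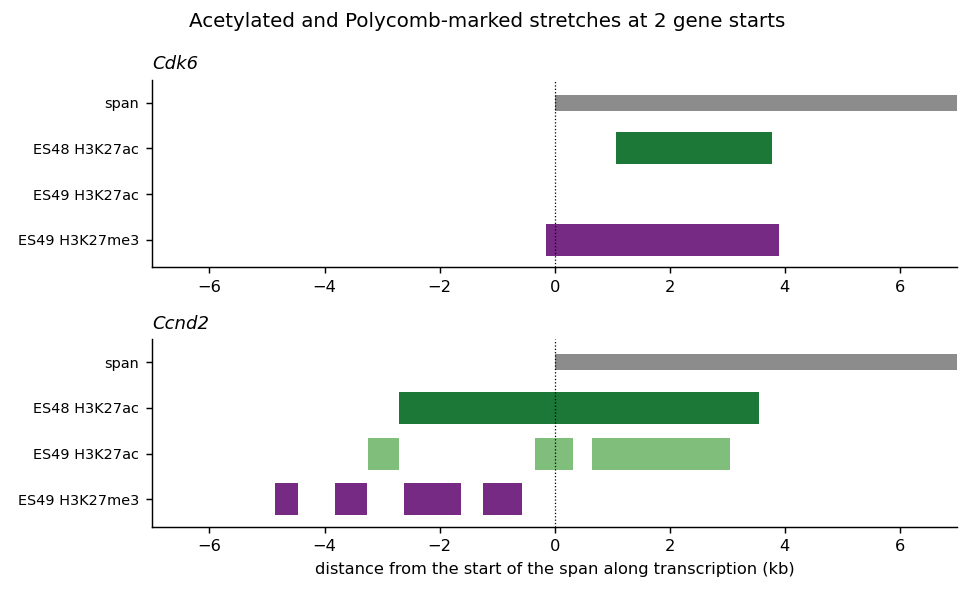
Peaks around the starts of the Cdk6 and Ccnd2 spans, by distance from the start along transcription (kb). The 2696 bp ES48 H3K27ac peak of Cdk6 lies within the 4045 bp ES49 H3K27me3 peak. At Ccnd2 the ES49 H3K27ac and H3K27me3 peaks lie side by side where ES48 has 1 acetylated stretch.

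Such overlaps were few in number, and most of the shares near the loci lay above those of the lists. Near the 7 loci 4 of 52 ES48 H3K27ac peaks (7.69%, 2.14 to 18.5) overlapped ES49 H3K27me3, 2 at Cdk4 and 1 each at Ccnd2 and Cdk6, against 1.74% of the list. That of Cdk6 was the only 1 of the 52 (1.92%, 0.0487 to 10.3) wholly inside an H3K27me3 peak, against 0.466%. Seen from the other mark, 5 of 22 H3K27me3 peaks (22.7%, 7.82 to 45.4) overlapped ES48 H3K27ac, against 2.90%. Within ES49, 0 of 56 H3K27ac peaks overlapped H3K27me3 (upper bound 6.38%), against 0.890%, and 3 of 56 (5.36%, 1.12 to 14.9) had it within 1 kb, against 1.34%. Those 3 were 2 at Ccnd2 and 1 at Cdk4. The counts are small and the peaks of a locus lie together, so the shares rest on 3 loci.

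The inhibitor loci held acetylation without H3K27me3. At the shared Cdkn2a and Cdkn2b locus all 4 ES48 H3K27ac peaks overlapped ES49 peaks, and ES49 had 6 more. Over the whole lists 66.6% of ES48 peaks and 68.6% of ES49 peaks overlapped the other line. The highest-scoring peak of the locus was chr4:88939185-88942458 in ES48 (3274 bp) and chr4:88938782-88942293 in ES49 (3512 bp). Both scored 3100. On its lower side lay chr4:88926990-88929464 in ES48 (2475 bp, score 2168, above 73.8% of its list), wholly within chr4:88926796-88929562 in ES49 (2767 bp, score 1162, above 81.2%). On its upper side, nearest to the start of the span, lay chr4:88956127-88958000 in ES48 (1874 bp, score 1507, above 67.1% of its list) and chr4:88955855-88957615 in ES49 (1761 bp, score 1230, above 82.1%).

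These 3 strong peaks stand in a row, as do the downstream and upstream starts of Cdkn2a and the start of Cdkn2b in the RefSeq order. They were not assigned to the starts, since the annotation is of another build. The fourth ES48 peak, chr4:88931990-88933070 (score 310.2, above 41.1% of its list), had an ES49 counterpart with a score of 96.96, above 37.5%. The 6 peaks of ES49 alone were 379 to 964 bp wide and scored 55.42 to 274.4. Of these, 4 lay at the lower end of the acetylated stretch, from chr4:88919539 to 88922908, and 2 between the strong peaks. The nearest H3K27me3 peak lay 394 kb away.

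At Cdkn1a RefSeq lists an upstream and a downstream start. Whether a peak covers either was not tested, for want of mm9 positions. The peak nearest the rounded start of the span lay 3.13 kb inside the span in ES48 and 4.21 kb inside in ES49. In ES48 it was chr17:29230128-29233215, 3088 bp wide with a score of 3100, above 80.4% of the list. In ES49 it was chr17:29231212-29232648, 1437 bp wide with a score of 546.9, above 69.5% of the list, and lay wholly within the ES48 peak. ES48 had 12 H3K27ac peaks at the locus and ES49 had 5. Of the 12 ES48 peaks 4 overlapped ES49 and 8 did not, against an overlap of 66.6% over the whole list. In ES49 4 of the 5 peaks overlapped ES48, against 68.6% of its list. These counts are small and were not tested.

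Of the 8 unmatched ES48 peaks at Cdkn1a, 6 lay before the gene and 2 past it. The widest were chr17:29192527-29195404 (2878 bp, score 1316) and chr17:29217403-29219663 (2261 bp, score 1214), 31.6 and 7.34 kb before the start. Next to the latter, chr17:29214747-29217157 in ES48 scored 3100, above 80.4% of its list, and its ES49 counterpart of 1374 bp scored 358.0, above 63.0%. The widest ES49 peak of the locus, chr17:29190208-29191875 (1668 bp, score 533.3, above 69.2% of its list), lay 35.1 kb before the start. It lay within the ES48 peak chr17:29189912-29191881 (1970 bp, score 877.6, above 57.6%). The other 6 unmatched ES48 peaks were 346 to 1126 bp wide with scores of 51.74 to 299.4. The neighbours are Srsf3 and Rab44, and Srsf3 lies on the side of this acetylation. H3K27me3 was nearest at chr17:29373012-29376282, 135 kb past the span (3271 bp, score 2511).

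EWS-FLI1 had no peak within 50 kb of any of the 8 genes in either line. Of the 7 loci 0 held an ES48 peak, against 1.45% of the 100 kb genome windows, and 0 an ES49 peak, against 0.973%. Beside such low shares, 0 of 7 is not a result about these genes, and it says nothing of binding below the authors' threshold. The distance from a span to the nearest peak had a median of 4.30 Mb in ES48 (range 0.472 to 12.0) and of 7.09 Mb in ES49 (0.588 to 75.9).

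The nearest EWS-FLI1 peaks differed between the lines at all loci but Cdk4, and their scores too are to be read within a list only. Cdkn1a had the closest, at chr17:28755162-28755343 in ES48 (472 kb, score 64.4) and chr17:29826003-29826203 in ES49 (588 kb, score 82.5), on opposite sides of the gene. Ccnd1 had an ES48 peak at 600 kb (chr7:151515329-151515483, score 60.5), while in ES49 the nearest lay 75.9 Mb away. For Ccnd3 the nearer peak was that of ES49, at 601 kb (chr17:48340742-48340931, score 53.4), against 7.65 Mb in ES48, where the peak scored 1885. The lists met only at Cdk4, where both had a peak 1.37 Mb away, chr10:127878847-127879017 in ES48 (score 87.5) within chr10:127878827-127879141 in ES49 (score 133). For Ccnd2, Cdk6 and the Cdkn2a and Cdkn2b locus the nearest peaks lay 4.30 to 12.0 Mb away in the 2 lines.

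**Figure D4:**
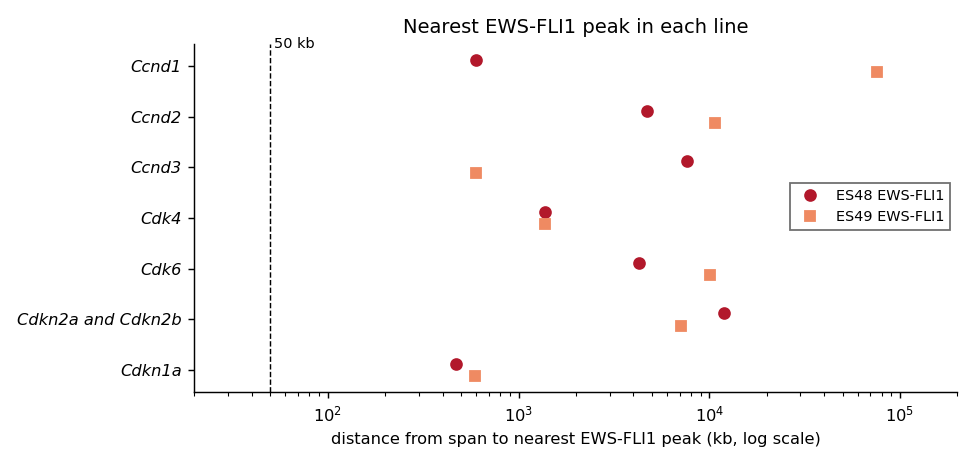
Distance (kb, log scale) from each span to the nearest EWS-FLI1 peak on its chromosome, with circles for ES48 and squares for ES49. Every point lies to the right of the dashed line at 50 kb, the closest at 472 kb for Cdkn1a in ES48.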

How the data were processed

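The deposited files are peak lists of 5 libraries, 1 list each. Every line gives a position, a name and a score, as the authors' peak caller wrote them. Bowtie 1.1.1, SAMtools 1.2 and the build mm9 are named in the submitters' processing notes. The deposited peak names begin with MACS. Which version of it, which control and which cutoffs were used is not given in the sources used here, and no source states the scale of the score. Read counts are not in the files, so the depth behind a peak is unknown, and a list with wider peaks or a lower threshold would cover more length.

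The genes, their spans and the lists were chosen with earlier results of these data known. Peaks within 50 kb of a span were taken, and overlap meant at least 1 bp. The peaks described were, per locus and line, the highest-scoring and the widest, those at a start, and every EWS-FLI1 peak or, where there was none, the nearest. Others that were named were chosen after their values were seen. Starts are printed 1-based. Distances run from a span to the nearest edge of a peak. Intervals are 95% Clopper-Pearson, over peaks. With 1 library per group no test was run. Genome windows ran from the chromosome start to the last peak of any list. Overlap code was checked on planted intervals. Alternatives were windows of 10 kb, 100 kb and the span alone, other distances at the start, overlap rules and the upper 50% of scores. Scripts ran under Python 3.11.15 with pandas 2.3.3, scipy 1.17.1, numpy 2.4.6 and, for figures, matplotlib 3.10.9.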

Additional observations from a re-analysis of the deposited data

How the results depend on the processing

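Of 76 alternative values, 64 stayed within 1.5 times the reported count or ratio on the same side of 1, or within the reported interval. Some of the 64 were fixed in advance, so the total overstates how stable the results are. They include the EWS-FLI1 counts and the 7 of 7 loci with H3K27ac, which a window of 100 kb cannot lower. The number of H3K27me3 peaks near the loci, 22 at 50 kb, was 33 at 100 kb, 11 at 10 kb, 5 in the spans alone and 10 with the upper 50% of the list by score. Settings chosen after the data were seen covered the 4 loci with H3K27me3, which were 3 at 10 kb and 1 in the spans alone, and the 4 loci with both marks in ES49, which were 2 and 0. At 100 kb and with the upper 50% of scores both counts were 4. The share of ES48 H3K27ac peaks that overlapped ES49, 65.4% at 50 kb, was 80.0% at 10 kb and 82.6% in the spans alone. Those windows hold fewer peaks, and the cause was not tested. The ratio of covered H3K27ac length turned at Ccnd1, to 0.950 in the span alone, and at Ccnd3, to 0.986 with the upper 50% of scores. At Ccnd2 it was 2.62 with the upper 50% of scores, and at Cdkn1a it was 1.71 in the span alone. At Cdk6 it had no value at 10 kb or in the span alone, where ES49 had no H3K27ac. EWS-FLI1 counts were 0 in both lines under each window and score setting. With the nearest peaks 472 kb away in ES48 and 588 kb in ES49, no setting tried could have given another count. No paired analysis was possible because each group is 1 library. Depth is unknown, so a missing peak does not show that a mark was absent.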
